A study of Mus musculus with 36 samples.

Results

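Heterogeneous nuclear ribonucleoproteins (hnRNPs) and SR proteins are the large families of RNA-binding proteins that coat new transcripts and decide with the spliceosome which exons are kept. The genes described here were taken by name alone: every gene of the deposited table whose symbol begins with Hnrnp or Srsf followed only by letters and digits. This gave 31 of 19909 genes, 20 of them Hnrnp and 11 Srsf. Their RNA was followed in 36 libraries of mouse cells from the subependymal zone (SEZ), the layer along the lateral ventricles of the brain that makes new neurons in the adult. All mice were C57BL/6 and 8 weeks old. The labels mention no genetic modification or drug given to the animals.

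The 28 libraries made directly from tissue came from 8 populations separated by flow cytometry (FACS). The labels name them qNSC, pNSC, aNSC and NPC1 with 4 libraries each, and NPC2, NB1, NB2 and Other with 3 each. The other 8 libraries came from neurospheres, floating cultures grown with the mitogens EGF and FGF. Neurosphere cells at passage 4 were loaded with 2 ug/ml of the dye DFFDA, cultured for 4 days and sorted into DFFDA_H and DFFDA_L, with 4 libraries each. The series describes these as populations of different proliferative kinetics. The labels give neither the sorting gates nor the meaning of the abbreviations, and they do not say which animals or cultures were pooled. The samples are called biological replicates without a named animal. The p-values below therefore rest on the spread between these libraries, which may be partly technical.

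As background, hnRNP proteins bind nascent RNA in the nucleus, and several of them block splice sites or exons, while SR proteins bind exonic enhancers and help the spliceosome to recognise an exon. SR proteins are phosphorylated by the SRPK and CLK kinases and are carried into the nucleus by the transportin Tnpo3. Many genes of both families limit their own output through transcript forms that nonsense-mediated decay destroys. In neural precursors, the related protein Ptbp1 represses neuronal exons, and its loss and the gain of Ptbp2 accompany neuronal differentiation. The values here are for whole genes, so transcript forms were not analysed.

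Values are the deposited log2 values, whose scale resembles log2 CPM. A sum over genes uses 2 raised to these values. Lists of marker genes changed along the order of the labels. The summed level of 6 astroglial genes was 134 to 149 in NB2 and 17300 to 19000 in qNSC, and that of 5 neuroblast genes was 6590 to 7710 in NB2 and 99.6 to 178 in qNSC. The summed level of 5 genes of activated and cycling cells was 167 to 218 in qNSC and 485 to 871 in pNSC. It was 2020 to 2450 in aNSC, 1420 to 1870 in NPC1 and 1890 to 2100 in NPC2. It was then 1110 to 1490 in NB1 and 253 to 276 in NB2. The genes at a library's lowest value numbered 362 to 3932, with the most in qNSC replicate 1. The distinct values below the median gene, a rough guide to depth, numbered 56 to 427, with the fewest in Other replicate 3. All 31 members passed the filter on low values in the fresh and in the cultured libraries. Some libraries stood apart in these genes: pNSC replicate 1 was high, qNSC replicate 1 was low, and the 3 Other libraries were spread.

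Together the 31 genes took 0.420% ± 0.049 of the summed expression of a library in qNSC, 0.785% ± 0.172 in pNSC (SD, n = 4 each) and 2.2% ± 0.057 in aNSC (SD, n = 4). The share was then 2.08% ± 0.097 in NPC1 (SD, n = 4), 1.94% ± 0.050 in NPC2, 1.77% ± 0.048 in NB1, 1.16% ± 0.029 in NB2 and 0.991% ± 0.157 in Other (SD, n = 3 each). In culture it was 0.385% ± 0.0052 in DFFDA_H and 0.663% ± 0.042 in DFFDA_L (SD, n = 4 each). The aNSC libraries thus spanned 2.13% to 2.25%, above the 0.348% to 0.461% of the qNSC libraries and the 0.619% to 1.03% of the pNSC libraries. The 20 Hnrnp genes summed to 15880 ± 421 in aNSC and to 2766 ± 236 in qNSC (SD, n = 4 each). The 11 Srsf genes summed to 5863 ± 259 in aNSC and to 1380 ± 255 in qNSC (SD, n = 4 each). In bulk RNA of this kind, fewer cells that express a gene and less RNA of it per cell cannot be told apart.

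**Figure D1:**
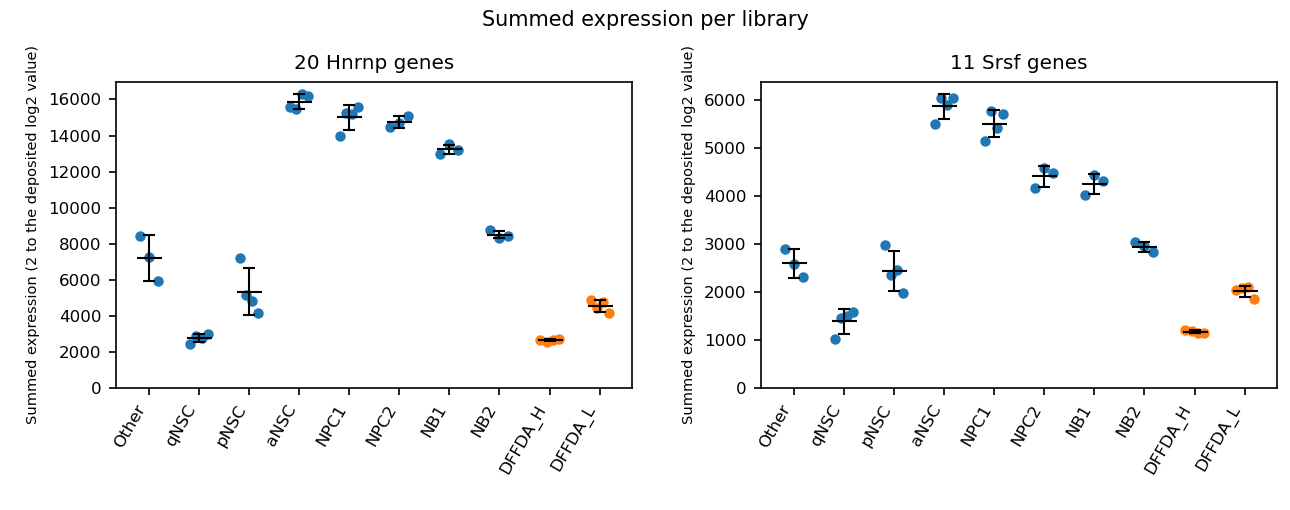
Summed expression of the 20 Hnrnp genes (left) and the 11 Srsf genes (right) in each library, as the sum of 2 raised to the deposited log2 value, with axes from 0. Points are libraries (blue for fresh, orange for cultured cells), long bars are means and whiskers are SD. aNSC is highest in both panels, with means of 15880 and 5863, and qNSC and DFFDA_H are lowest.

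The genes followed a common course. Over the 8 fresh populations, 28 of the 31 members had their lowest mean in qNSC, and 24 had their highest in aNSC (13) or NPC1 (11). The exceptions at the low end were Hnrnpl, which binds CA repeats, and the prototype SR protein Srsf1, both lowest in Other, and Srsf5, lowest in NPC2. At the high end, 3 members peaked in NPC2 and 2 in NB1. Srsf12, which counteracts other SR proteins, peaked in NB2 and Hnrnpul2, a relative of Hnrnpu, in Other. The median correlation between 2 members across the 8 population means was 0.871 over 465 pairs, 310 pairs were above 0.8 and 0 were below 0. These points share libraries and normalization, so the correlations are a description. Srsf5 and Srsf12 fitted the common course least, with median correlations to the other members of 0.323 and 0.58. Srsf12 was at the library's lowest value in qNSC replicate 1 (-2.18) and pNSC replicate 3 (-4.31). These values enter its population means and correlations. The population means of Hnrnpd, which binds AU-rich elements and promotes decay of such mRNAs, followed those of the proliferation marker Mki67 most closely (correlation 0.98 over 8 populations), and those of Srsf12 least (0.405).

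**Figure D2:**
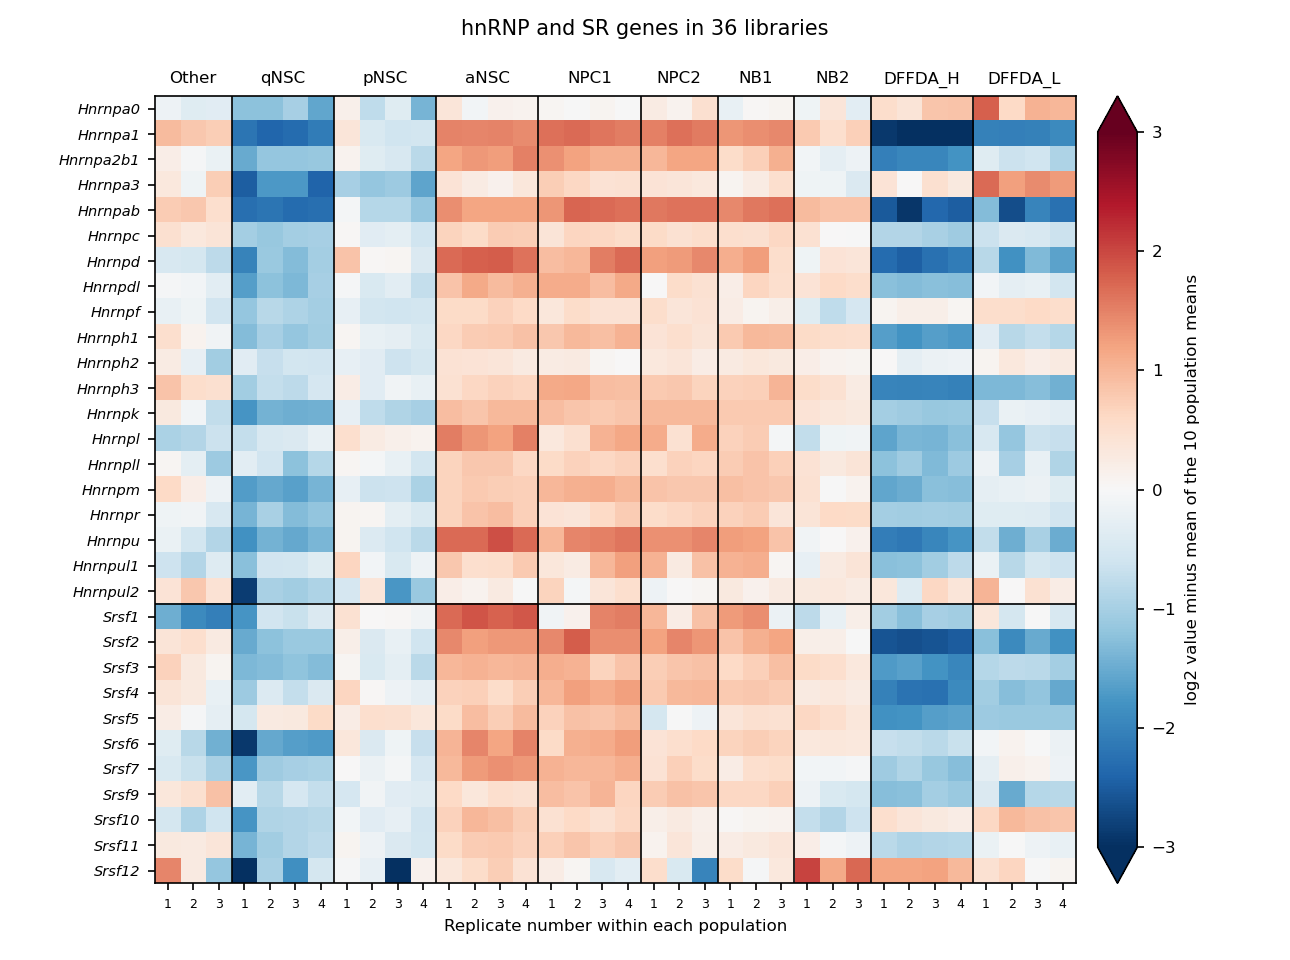
Deposited log2 value of each of the 31 genes (rows, Hnrnp above the line and Srsf below it) in each of the 36 libraries (columns, by population and replicate number), minus the gene's mean over the 10 population means. Red is higher and blue lower. Nearly all rows are blue in qNSC and red in aNSC and NPC1, and Srsf12 is most red in NB2.

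Levels of different genes were compared only per kilobase of merged exons, on the linear scale. In aNSC the highest were Hnrnpab, a shuttling protein of RNA transport, with 629 ± 47.0 per kilobase, the poly(C)-binding Hnrnpk with 457 ± 21.9 and Hnrnpa2b1, which binds RNA trafficking signals, with 390 ± 39.8 (SD, n = 4 each). Hnrnpa3, Hnrnpul2 and Srsf12 were lowest, with 3.03 ± 0.257, 2.3 ± 0.193 and 1.35 ± 0.157 per kilobase (SD, n = 4 each). The leading 3 exchanged places when the longest coding transcript gave the length, with 1480 for Hnrnpa2b1, 994 for Hnrnpk and 739 for Hnrnpab. Hnrnpa3 has stretches of at least 200 bases with at least 95% identity in 28 other annotated genes, 27 of them pseudogenes. Hnrnpa1 has them in 9, Hnrnpf in 8, Srsf3 in 4, Hnrnpk and Srsf10 in 2 each, and Hnrnpc, Hnrnph2, Hnrnpr and Srsf5 in 1 each. The sources used here do not say how such shared reads were assigned, so the levels of these genes are uncertain. The library kit does not mark strand, so reads cannot be told apart where genes overlap on opposite strands. This concerns Hnrnpab and Phykpl, Hnrnpu and Cox20, Srsf2 and Mettl23 or Mfsd11, Hnrnpk and Rmi1, and Hnrnph3 and Rufy2. It also concerns Hnrnpd, Hnrnpf, Hnrnpl, Hnrnpll, Hnrnpr, Srsf1 and Srsf4, which overlap other annotated genes on the opposite strand.

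The start regions of the genes were read because most members moved together. RefSeq windows of 300 bases (250 before and 50 after the gene start, build GRCm38.p6) matched 29 members by symbol. Hnrnpll and Hnrnpul2 had no entry. Gene starts differ between annotations: by GENCODE M21 coordinates, some windows lie inside the gene, among them those of Srsf10, Hnrnpk and Hnrnpl. Each window was searched on both strands for CCAAT (reverse ATTGG), the element CACGTG, the E2F-type letters GCGGGAA (reverse TTCCCGC) and TATAAA (reverse TTTATA). No match shared a base with a match of another motif. CCAAT was in 16 of 29 member windows (55.2%), in 37.9% of all 27025 windows and in 38.3% of the 12279 windows of genes in the table. GCGGGAA was in 5 (17.2%, against 4.66% of all and 8.03% of the table's), CACGTG in 4 (13.8%, against 7.24% and 9.6%) and TATAAA in 4 (13.8%, against 14.2% and 7.22%). The member windows had a median GC content of 68.3% and 31 CpG dinucleotides, against 52.7% and 7 over all windows and 60.3% and 20 over those of the table's genes.

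The windows of 4 members are shown, with matches in capitals: Hnrnpa1 and Hnrnpab, which rose most between qNSC and aNSC, Srsf10, which holds GCGGGAA 3 times, and Srsf5, which followed the common course least and holds none of the motifs. They lie at chr15:103240147-103240446 (plus strand) for Hnrnpa1, chr11:51606832-51607131 (minus strand) for Hnrnpab, chr4:135855821-135856120 (plus strand) for Srsf10 and chr12:80945249-80945548 (plus strand) for Srsf5, and each is read 5′ to 3′ on the strand of its gene. A match is a description of the letters and not a bound site.
Hnrnpa1: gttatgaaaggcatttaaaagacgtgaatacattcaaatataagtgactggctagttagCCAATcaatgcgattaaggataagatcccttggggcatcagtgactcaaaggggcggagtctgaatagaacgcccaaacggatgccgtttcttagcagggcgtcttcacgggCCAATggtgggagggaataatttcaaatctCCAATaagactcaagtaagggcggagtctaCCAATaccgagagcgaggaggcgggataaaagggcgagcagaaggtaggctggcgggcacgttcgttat
Hnrnpab: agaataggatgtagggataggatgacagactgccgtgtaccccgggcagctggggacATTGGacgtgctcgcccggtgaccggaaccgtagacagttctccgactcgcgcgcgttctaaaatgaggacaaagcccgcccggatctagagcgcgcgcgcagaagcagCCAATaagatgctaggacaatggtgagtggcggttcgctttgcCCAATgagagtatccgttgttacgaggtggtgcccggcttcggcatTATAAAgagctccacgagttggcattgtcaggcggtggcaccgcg
Srsf10: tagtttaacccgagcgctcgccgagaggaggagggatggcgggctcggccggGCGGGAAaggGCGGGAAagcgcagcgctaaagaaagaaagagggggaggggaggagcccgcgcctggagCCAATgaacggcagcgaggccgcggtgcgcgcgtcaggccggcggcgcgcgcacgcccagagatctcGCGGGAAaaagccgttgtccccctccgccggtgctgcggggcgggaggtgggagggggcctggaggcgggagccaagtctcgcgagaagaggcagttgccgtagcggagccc
Srsf5: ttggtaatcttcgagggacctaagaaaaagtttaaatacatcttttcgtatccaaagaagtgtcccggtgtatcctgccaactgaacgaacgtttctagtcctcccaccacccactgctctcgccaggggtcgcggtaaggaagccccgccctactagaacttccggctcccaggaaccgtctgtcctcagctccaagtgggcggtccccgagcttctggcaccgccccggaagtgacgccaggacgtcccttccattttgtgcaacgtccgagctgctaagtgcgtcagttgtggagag

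The Hnrnpa1 window holds CCAAT 4 times, the Hnrnpab window holds it 3 times over both strands, together with TATAAA, and the Srsf10 window holds it 1 time. Among the members without any CCAAT were Hnrnpu, Hnrnpd and Srsf6, which also rose more than 8-fold between qNSC and aNSC, as given next.

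Among the comparisons made between freshly sorted populations, the widest difference was that of aNSC against qNSC. All 31 members were higher in aNSC and none lower, where 35.3% of the 17788 genes tested were higher and 27.1% lower (62.3% called in all). A gene was called when its limma p-value, adjusted over all genes tested, was under 0.05. The median log2 difference of the members was 2.00 and that of all genes 0.19. For 30 members every aNSC library lay above every qNSC library, against 31.6% of all genes, and 29 members differed more than 2-fold.

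Hnrnpa1, which binds exonic silencers, had log2 values of 8.43, 8.40, 8.44 and 8.35 in the aNSC libraries, against 4.75, 4.56, 4.63 and 4.84 in qNSC. The groups were far apart and each was tight. Its difference was 3.71 ± 0.14 (SE), or 13.1-fold, with adjusted p = 5.63e-17. Hnrnpab had 10.93, 10.72, 10.72 and 10.72 in aNSC, against 7.26, 7.34, 7.23 and 7.26 in qNSC. It was 11.3-fold higher, a difference of 3.5 ± 0.15 (SE), with adjusted p = 3.57e-16. Hnrnpu, the scaffold attachment factor that binds chromatin and RNA, had 11.77, 11.77, 11.99 and 11.77 in aNSC, against 8.26, 8.64, 8.54 and 8.70 in qNSC. It was 9.77-fold higher, with adjusted p = 6.26e-15. Hnrnpa2b1 was 5.86-fold higher and Hnrnpd 8.55-fold.

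The G-tract binding proteins were spread widely. Hnrnph1 was 3.71-fold higher in aNSC, Hnrnpf 3.00-fold, Hnrnph3 2.57-fold and Hnrnph2 1.87-fold. The pair that bind CA repeats, Hnrnpl and Hnrnpll, were 3.60-fold and 2.77-fold higher.

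Among SR genes Srsf2, the speckle protein also called SC35, had 10.23, 10.02, 10.08 and 10.09 in aNSC, against 7.26, 7.56, 7.67 and 7.67 in qNSC. Again no library overlapped, and the difference of 2.57 ± 0.14 (SE) was 5.92-fold, with adjusted p = 2.69e-14. Srsf6 differed most among SR genes, 9.40-fold, with aNSC values of 8.95, 9.39, 9.10 and 9.40 against qNSC values of 5.04, 6.39, 6.26 and 6.22. In qNSC replicate 1 it was more than 1 log2 unit below the other 3. Srsf1 was 6.36-fold higher, and Srsf3 and Srsf7, both adaptors of mRNA export, 4.93-fold and 5.38-fold. Srsf5 moved least of the 31, with 8.36, 8.72, 8.52 and 8.73 in aNSC against 7.27, 8.06, 8.09 and 8.37 in qNSC. Its libraries overlapped in range, and it was 1.56-fold higher, with adjusted p = 0.00143.

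Srsf12 was at the lowest value of the library in qNSC replicate 1 (-2.18) and had 0.59, -0.28 and 1.03 in the other qNSC libraries, against 1.91, 2.11, 2.3 and 2.01 in aNSC. Its call (adjusted p = 0.0309) was lost without qNSC replicate 1, qNSC replicate 3, aNSC replicate 2 or aNSC replicate 3, with adjusted p up to 0.129 over the alternatives tried. The deposited values gave all genes a median of 0.19 in this comparison. When libraries were instead centred by trimmed mean log ratios, an alternative chosen after seeing the data, that median was -0.06, the members' median 1.77, and 30 members were higher. Markers moved too. The 6 astroglial genes summed to 1230 to 2360 in aNSC against 17300 to 19000 in qNSC, the 5 ependymal genes to 13 to 21.8 against 137 to 154, and the 4 of 5 mural cell genes found in the table to 1.8 to 5.32 against 119 to 160. None of these genes was at the lowest value in all libraries of either group. The 5 genes of activated and cycling cells summed to 2020 to 2450 in aNSC against 167 to 218 in qNSC. The part of these other cells and of cycling in the result was not tested.

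pNSC against qNSC, neighbouring labels, showed the rise of 24 members and the fall of none, where 14.2% of all genes were higher and 8.06% lower (22.3% called in all). The 24 were 17 Hnrnp and 7 Srsf genes. The members had a median log2 difference of 0.80, and all genes one of -0.05. Of the 31 members, 7 were more than 2-fold higher, and for 23 no library of one group overlapped the other, against 9.75% of all genes in this direction and 10.5% in the other.

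Hnrnpa1 had 7.30, 6.49, 6.35 and 6.39 in pNSC, against the qNSC values of 4.56 to 4.84 given above. All pNSC libraries were higher, and the first stood out above the other 3. The difference was 1.94 ± 0.14 (SE), 3.83-fold, with adjusted p = 6.5e-10. Hnrnpab had 9.47, 8.66, 8.67 and 8.37 in pNSC, against 7.23 to 7.34 in qNSC, and was 2.87-fold higher (adjusted p = 4.64e-08). Hnrnpr, an mRNA-binding relative of Syncrip, had 7.55, 7.54, 7.17 and 7.01 in pNSC, against 6.08, 6.48, 6.17 and 6.29 in qNSC. It was 2.08-fold higher (adjusted p = 1.97e-06). Hnrnph1 had 7.76, 7.48, 7.44 and 7.24 in pNSC, against 6.4, 6.70, 6.53 and 6.65 in qNSC. It was 1.88-fold higher (adjusted p = 2.7e-06), and none of these 4 genes had overlapping libraries.

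The SR genes that rose included Srsf2, 1.96-fold, and Srsf6, whose log2 difference of 1.72 was the largest of the SR genes. The 7 members that did not pass were Hnrnph2 (log2 difference 0.10), Hnrnpul1 (0.67), Hnrnpul2 (0.69), Srsf1 (0.96, adjusted p = 0.0507), Srsf5 (0.23), Srsf9 (0.26) and Srsf12 (0.27). Srsf12 was at the lowest value of the library in pNSC replicate 3. Without pNSC replicate 1 the count of higher members was 21, and Hnrnpa0, Hnrnpl and Hnrnpll, with adjusted p up to 0.185, 0.118 and 0.121 over the alternatives, were the members that lost their call. Hnrnpa0 and Hnrnpll also lost it without qNSC replicate 4, Hnrnpa0 without pNSC replicate 3, and Hnrnpll without qNSC replicate 3 or pNSC replicate 2. With only the 2 groups fitted, Hnrnpa0, Hnrnpll, Hnrnpa3, Hnrnpf and Srsf4 lost their call (the last 3 with adjusted p of 0.156, 0.0748 and 0.0621), and with library weights Hnrnpa0 and Hnrnpl did. The cycling markers summed to 485 to 871 in pNSC against 167 to 218 in qNSC, and the neuroblast marker genes to 375 to 1130 against 99.6 to 178. The 9 microglial genes summed to 331 to 644 against 160 to 482. The ependymal genes summed to 47.4 to 103 against 137 to 154, and the mural genes to 22.2 to 134 against 119 to 160. The part of all these in the result was not tested.

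aNSC against pNSC shares the pNSC libraries with the previous comparison. Of the members, 30 were higher in aNSC and none lower, with 28.4% of all genes higher and 19.9% lower (48.3% called in all). Their median log2 difference was 1.14 and that of all genes 0.22, and 27 members did not overlap between the groups, against 27% of all genes higher and 19% lower in this way. Srsf12 alone did not pass (log2 difference 2.02, adjusted p = 0.0682). Against the pNSC values above, Hnrnpu had the largest passing difference, with 11.77, 11.77, 11.99 and 11.77 in aNSC and 10.15, 9.67, 9.47 and 9.26 in pNSC. It was 4.56-fold higher (adjusted p = 3.58e-11), and no library overlapped. Hnrnpab was 3.94-fold higher (adjusted p = 3.31e-11) and Hnrnpa1 3.41-fold (adjusted p = 9.25e-11). Srsf2 had 10.02 to 10.23 in aNSC, against 8.96, 8.34, 8.55 and 8.18 in pNSC, and was 3.03-fold higher (adjusted p = 5.15e-10). The smallest passing difference was that of Srsf5, 0.41.

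Hnrnpul1, Hnrnpul2, Srsf5 and Hnrnpa0 lost their call in some alternatives, with adjusted p up to 0.155, 0.187, 0.346 and 0.0544. The libraries whose omission ended these calls were, for Hnrnpa0, pNSC replicate 4, for Hnrnpul1, pNSC replicates 2, 3 and 4 and aNSC replicates 1 and 4, for Hnrnpul2, pNSC replicates 3 and 4 and aNSC replicates 1, 2 and 3, and for Srsf5, pNSC replicates 1 and 4 and aNSC replicates 2, 3 and 4. Under trimmed mean log ratio centring the median of all genes was 0.01, that of the members 0.93, and 27 members were higher. The share of higher genes among all calls in this comparison was 58.8%, and 45.3% under that centring. The cycling markers summed to 2020 to 2450 in aNSC against 485 to 871 in pNSC, and their part in the result was not tested.

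**Figure D3:**
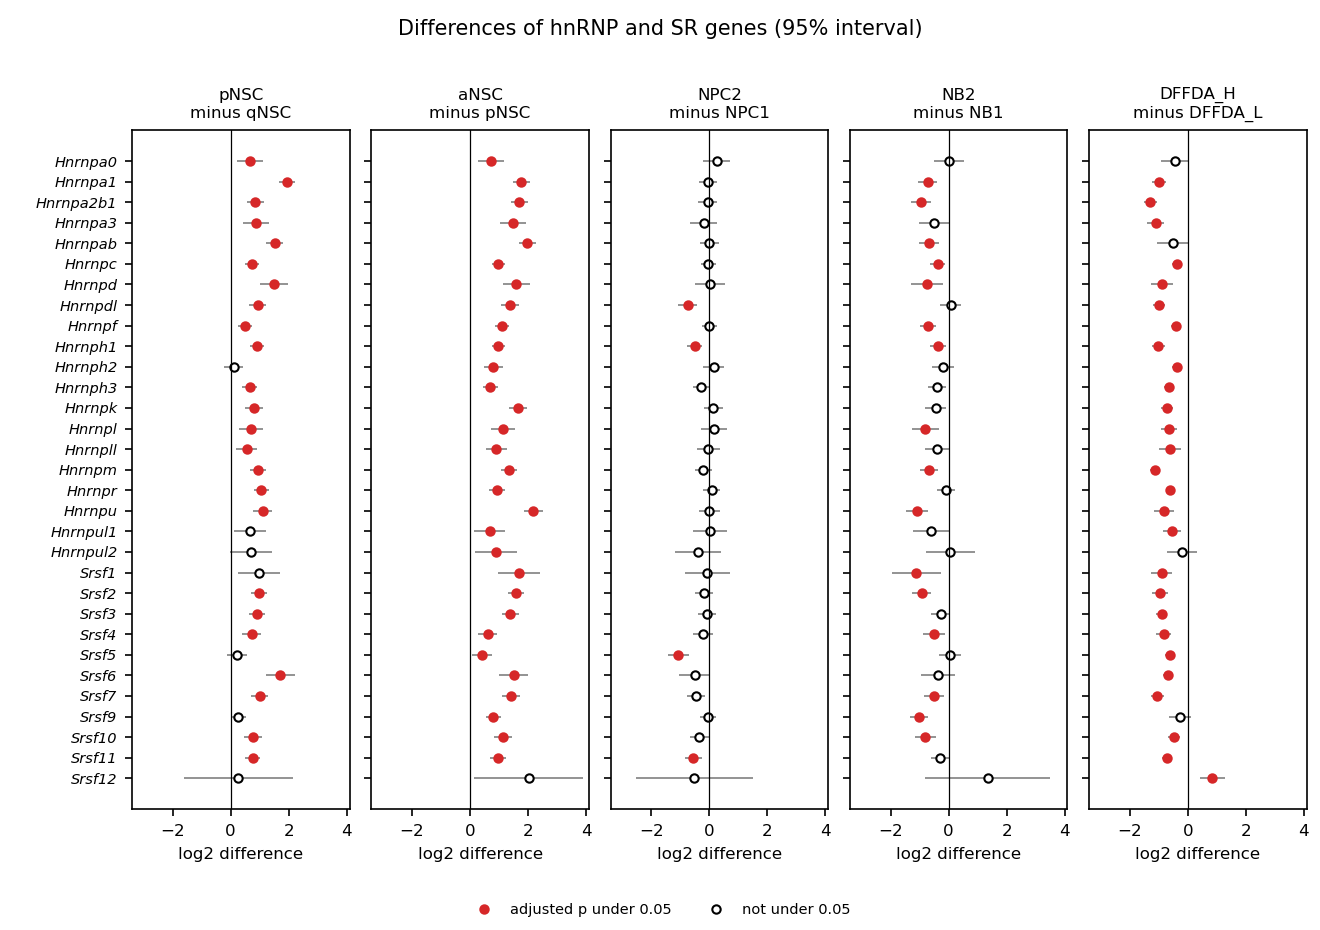
Log2 difference of each of the 31 genes (rows) in 5 comparisons (panels), each the first group named minus the second, with the 95% interval of the limma fit. Filled red points have adjusted p under 0.05 over all genes tested and open points do not. In the left 2 panels 24 and 30 genes are filled to the right of 0, and in the NB2 and DFFDA_H panels 16 and 26 are filled to the left.

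In each of the 3 neighbouring steps from aNSC to NB1, at most 4 members passed the test. NB1 was not tested against aNSC. In NPC1 against aNSC, 2 members were higher and 1 lower, where 6.24% of all genes were higher and 6.48% lower (12.7% called in all). Among the members the median log2 difference was -0.09, against 0.03 among all genes. Libraries did not overlap for 6 members that were higher and 6 that were lower, against 15.8% and 14% of all genes. Hnrnph3 had 8.25, 8.30, 8.05 and 8.03 in NPC1, against 7.58, 7.73, 7.81 and 7.77 in aNSC (difference 0.43, adjusted p = 0.0247). Srsf9, a small SR protein, had 7.77, 7.71, 7.87 and 7.49 in NPC1, against 7.46, 7.18, 7.36 and 7.32 in aNSC (0.38, adjusted p = 0.0493). Hnrnpl had 7.84, 8.00, 8.56 and 8.68 in NPC1, against 9.07, 8.84, 8.73 and 9.04 in aNSC, and fell (log2 difference -0.65, adjusted p = 0.0317). In all 3 genes the libraries did not overlap, but the steps were small.

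The largest difference was that of Srsf1, with 7.47, 7.70, 9.07 and 9.12 in NPC1 against 9.27, 9.47, 9.35 and 9.43 in aNSC (-1.04, adjusted p = 0.0525). The first 2 NPC1 libraries were low in it, and the other 2 were close to aNSC. The call of Hnrnph3 was lost without aNSC replicates 1 or 2 or NPC1 replicates 1 or 2 (adjusted p up to 0.0814). That of Hnrnpl was also lost without aNSC replicate 4 (up to 0.148). That of Srsf9 was lost without aNSC replicates 2, 3 or 4 or NPC1 replicates 1, 2 or 3 (up to 0.151). The 6 astroglial genes summed to 279 to 702 in NPC1 against 1230 to 2360 in aNSC, and the 5 neuroblast genes to 2610 to 3530 against 792 to 1170, and their part in the result was not tested.

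In NPC2 against NPC1, 4 members fell and none rose, where 1.14% of all genes were lower and 0.202% higher (1.34% called in all). The members' median log2 difference was -0.07, that of all genes 0.02. Libraries did not overlap for 2 members that were higher and 9 that were lower, against 8.52% and 9.85% of all genes. Srsf5, an SR protein first described in regenerating rat liver, had 7.27, 7.78 and 7.63 in NPC2, against 8.48, 8.66, 8.62 and 8.73 in NPC1. The groups were apart, and its difference of -1.06 ± 0.18 (SE) was 2.09-fold lower in NPC2 (adjusted p = 0.00197). Hnrnpdl, a relative of Hnrnpd, had 7.56, 8.10 and 7.99 in NPC2, against 8.67, 8.67, 8.47 and 8.69 in NPC1 (-0.74, adjusted p = 0.0163). Hnrnph1 had 8.11, 8.19 and 8.08 in NPC2, against 8.51, 8.66, 8.61 and 8.74 in NPC1 (-0.50, adjusted p = 0.0392). Srsf11 had 7.98, 8.26 and 8.07 in NPC2, against 8.6, 8.72, 8.6 and 8.70 in NPC1 (-0.55, adjusted p = 0.0429). In all 4 genes the NPC2 libraries lay below every NPC1 library.

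The call of Srsf5 was kept in every alternative tried. That of Hnrnpdl was lost without NPC1 replicate 4 or NPC2 replicate 1 (adjusted p up to 0.163). Those of Hnrnph1 and Srsf11 were lost when any 1 of NPC1 replicates 2, 3 and 4 or NPC2 replicates 1, 2 and 3 was left out, and that of Srsf11 also without NPC1 replicate 1 (up to 0.163 and 0.239). The 9 microglial genes summed to 162 to 180 in NPC2 against 229 to 278 in NPC1, and the cycling markers to 1890 to 2100 against 1420 to 1870, and their part in the result was not tested.

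NB1 against NPC2 shares the NPC2 libraries with the previous comparison. In it 2 members were higher and none lower, where 3.78% of all genes were higher and 3.88% lower (7.67% called in all). The members' median was -0.05 and that of all genes was close to 0 (-0.0043). Libraries did not overlap for 5 members that were higher and 8 that were lower, against 17.4% and 17.7% of all genes. Srsf5 had 8.17, 8.28 and 8.24 in NB1, against the NPC2 values of 7.27 to 7.78 (0.67, adjusted p = 0.0267). Hnrnph1 had 8.48, 8.66 and 8.65 in NB1, against 8.08 to 8.19 in NPC2 (0.47, adjusted p = 0.0291). These are 2 of the 4 genes that were low in NPC2. Both calls were lost without NPC2 replicates 1 or 3 or NB1 replicates 2 or 3. That of Srsf5 was also lost without NB1 replicate 1, and that of Hnrnph1 without NPC2 replicate 2 (adjusted p up to 0.154 and 0.109). The largest difference, 0.91 in Srsf12, did not pass (adjusted p = 0.716), with NB1 values of 2.13, 1.54 and 1.87 against NPC2 values of 2.1, 1.1 and -0.40. The neuroblast genes summed to 4780 to 4940 in NB1 against 2970 to 3440 in NPC2, and the cycling markers to 1110 to 1490 against 1890 to 2100, and their part in the result was not tested.

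NB2 against NB1, the labels at the end of the sequence, showed a fall of 16 members and a rise of none, where 14.2% of all genes were lower and 10.4% higher (24.6% called in all). The 16 were 10 Hnrnp and 6 Srsf genes. Members had a median log2 difference of -0.49, all genes one of -0.03. For 23 members the NB2 libraries lay below every NB1 library, against 25.7% of all genes, and for 1 they lay above, against 24.5%. Hnrnpu had 9.96, 10.08 and 10.19 in NB2, against 11.31, 11.26 and 10.93 in NB1. It was 2.12-fold lower (adjusted p = 9.43e-05), with no overlap. Hnrnpa2b1 had 9.92, 9.73 and 9.86 in NB2, against 10.55, 10.72 and 11.07 in NB1, and was 1.92-fold lower (adjusted p = 0.000157). Srsf9 had 6.71, 6.4 and 6.32 in NB2, against 7.47, 7.48 and 7.57 in NB1, and was 2.04-fold lower (adjusted p = 1.01e-05). Srsf2 had 8.96, 8.96 and 8.76 in NB2, against 9.63, 9.85 and 9.96 in NB1, and was 1.89-fold lower (adjusted p = 9.72e-05).

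Srsf1 had the largest called difference, -1.11 (adjusted p = 0.048), and its libraries were spread: 6.79, 7.35 and 7.74 in NB2 against 8.85, 8.96 and 7.40 in NB1. The other 15 did not pass. Srsf5 had 8.42, 8.29 and 8.13 in NB2, against 8.17, 8.28 and 8.24 in NB1 (difference 0.06, adjusted p = 0.869), and Hnrnpdl, Hnrnpul2 and Hnrnpa0 differed by 0.07, 0.06 and 0.01. Srsf12 had 3.59, 2.70 and 3.29 in NB2, all above the NB1 values of 1.54 to 2.13. Its difference of 1.35 ± 1.05 (SE) did not pass (adjusted p = 0.379). That SE is not the spread of the NB1 and NB2 libraries alone. It pools the spread of all fresh populations, with the lowest values of Srsf12 in qNSC replicate 1 (-2.18) and pNSC replicate 3 (-4.31).

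The count of 16 was 9 without NB1 replicate 2, 10 without NB2 replicate 2 and 10 under trimmed mean log ratio centring. Hnrnpc, Hnrnpd, Hnrnph1, Hnrnpl, Srsf1, Srsf4 and Srsf7 were the members whose call was lost in some alternative. In each of the 7 the omission of NB1 replicate 2 was among those that ended it, with adjusted p up to 0.207 over all alternatives for Srsf1. The cycling markers summed to 253 to 276 in NB2 against 1110 to 1490 in NB1, and Mki67 had a mean of 5.88 ± 0.09 in NB2 and 7.55 ± 0.52 in NB1 (SD, n = 3 each). The 5 neuroblast genes summed to 6590 to 7710 in NB2 against 4780 to 4940 in NB1, and 4 genes of mature neurons to 134 to 156 against 43 to 67.9. Their part in the result was not tested.

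NB2 against aNSC gave 18 lower and no higher members (10 Hnrnp and 8 Srsf lower), where 27.1% of all genes were lower and 23.6% higher (50.8% called in all). The median was -0.54 over the members and -0.05 over all genes, on the log2 scale. For 26 members the NB2 libraries lay below every aNSC library, against 33.2% of all genes, and for 1 they lay above, against 31.1%. This comparison shares its NB2 libraries with the previous one. Hnrnpu was 3.35-fold lower in NB2, with 9.96 to 10.19 against 11.77 to 11.99 in aNSC (adjusted p = 5.58e-09). Hnrnpa2b1, with 9.73 to 9.92 in NB2 against 11.18, 11.31, 11.26 and 11.52 in aNSC, was 2.80-fold lower (adjusted p = 1.65e-08). Hnrnpf had 6.2, 5.79 and 6.05 in NB2, against 7.14, 7.13, 7.24 and 7.15 in aNSC, and was 2.22-fold lower (adjusted p = 1.65e-08). None of these libraries overlapped.

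Srsf10, an SR protein that represses splicing when dephosphorylated, had 6.64, 6.48 and 6.74 in NB2, against 8.04, 8.35, 8.25 and 8.10 in aNSC. It was 2.96-fold lower (adjusted p = 1.44e-08). Srsf1 fell most, with 6.79 to 7.74 in NB2 against 9.27 to 9.47 in aNSC, 4.24-fold (adjusted p = 6.01e-05). Hnrnpab had 10.47, 10.38 and 10.38 in NB2, below its aNSC values of 10.72 to 10.93, and its difference from aNSC of -0.36 did not pass (adjusted p = 0.059). Nor did those of Hnrnpr (-0.27), Hnrnph1 (-0.23) and Srsf5 (-0.30). Among the called members Hnrnpdl lost its call without NB2 replicate 1 (adjusted p = 0.0533), and the other calls were kept in every alternative tried. The cycling markers summed to 253 to 276 in NB2 against 2020 to 2450 in aNSC. The 5 neuroblast genes summed to 6590 to 7710 against 792 to 1170, and the 6 astroglial genes to 134 to 149 against 1230 to 2360. Their part in the result was not tested.

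The population labelled Other was compared with the mean of the means of the 7 other fresh populations. Of the members, 16 were lower and 4 higher, where 28.4% of all genes were lower and 25.9% higher (54.3% called in all). For the members the median log2 difference was -0.31, for all genes -0.06. No member lay outside the range of all 25 other fresh libraries in all 3 Other libraries, which 4.83% of all genes did on the high side and 2.83% on the low side. Srsf1 had 6.10, 5.67 and 5.51 in Other, against population means of 6.71 (qNSC) to 9.38 (aNSC), and was 4.75-fold lower (adjusted p = 1.3e-06). Hnrnpl had 6.59, 6.64 and 6.88 in Other, against means of 7.07 in qNSC and 8.92 in aNSC, and was 2.38-fold lower (adjusted p = 1.68e-06). Hnrnpu had 9.86, 9.51 and 9.18 in Other, against means of 8.54 in qNSC and 11.82 in aNSC, and was 2.11-fold lower than the mean of the 7 (adjusted p = 6.2e-07). Srsf7 had 8.47, 8.27 and 7.96 in Other, against means of 7.74 in qNSC and 10.16 in aNSC, and was 1.94-fold lower (adjusted p = 8.39e-07).

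The higher members were Hnrnpa3 (log2 difference 0.60, adjusted p = 0.00805), Srsf9 (0.35, adjusted p = 0.0103), Hnrnpc, which sorts RNAs by length for export (0.23, adjusted p = 0.0455), and Hnrnpul2 (0.71, adjusted p = 0.0499). Hnrnpul2 had 4.29, 4.68 and 4.31 in Other, against means of 2.44 in qNSC and 4.02 in aNSC. Hnrnpa3 had 4.07, 3.63 and 4.47 in Other, against means of 1.67 in qNSC and 4.31 in NPC1. Srsf9 had 7.19, 7.33 and 7.72 in Other, against means of 6.26 in qNSC and 7.71 in NPC1. Hnrnpc had 9.55, 9.39 and 9.46 in Other, against means of 8.03 in qNSC and 9.76 in aNSC. These higher members thus lay within the span of the named populations, apart from Hnrnpul2, whose mean was above all of theirs.

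The 3 Other libraries differed among themselves. Without Other replicate 3, 10 members were lower and none higher: Hnrnpa2b1, Hnrnpdl, Hnrnpf, Hnrnph2, Hnrnpk and Srsf5 were no longer called lower, nor any of the 4 called higher. Hnrnpa2b1 was also lost without Other replicate 2 (adjusted p up to 0.136). The call of Hnrnpul2 was lost in 23 of 34 alternatives and that of Hnrnpc in 19 of 35, the omission of any 1 of the 3 Other libraries among them. Without pNSC replicate 1, 6 members were higher. Of 6 endothelial genes the sum was 464 to 1350 in Other and at most 8.70 in any library of the 7 named populations, and of 9 microglial genes it was 415 to 785 in Other. The neuroblast genes summed to 5130 to 7300 in Other. The part of these cells in the result was not tested.

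In culture, DFFDA_H had less RNA of most members than DFFDA_L. Of the 31, 26 were lower and 1 higher, where 22.3% of the 15956 genes tested in culture were lower and 21.6% higher (43.8% called in all). Over the members the median log2 difference was -0.69, over all genes -0.01. For 25 members every DFFDA_H library lay below every DFFDA_L library, against 19.8% of all genes, and for 1 every one lay above, against 19.2%. Hnrnpa2b1 had 7.97, 8.04, 8.06 and 8.21 in DFFDA_H, against 9.63, 9.35, 9.41 and 9.08 in DFFDA_L. It was 2.46-fold lower, a difference of -1.30 ± 0.10 (SE), with adjusted p = 1.66e-06. Hnrnpm, which binds GU-rich RNA, had 7.02, 7.09, 7.32 and 7.31 in DFFDA_H, against 8.31, 8.35, 8.40 and 8.22 in DFFDA_L. It was 2.2-fold lower (adjusted p = 1.26e-06). Hnrnpdl had 6.28, 6.24, 6.29 and 6.27 in DFFDA_H, against 7.46, 7.28, 7.32 and 7.0 in DFFDA_L, and was 1.99-fold lower (adjusted p = 5.05e-06). In all 3 genes the groups were clearly apart.

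Srsf3 had 7.12, 7.20, 7.03 and 6.87 in DFFDA_H, against 7.97, 8.04, 8.02 and 7.80 in DFFDA_L, and was 1.87-fold lower (adjusted p = 6.92e-06). Srsf7 was 2.07-fold lower and Srsf2 1.95-fold. The smallest falls that passed were those of Hnrnph2 (1.29-fold) and Hnrnpc (1.31-fold). Srsf12 went the other way, with 2.74, 2.76, 2.78 and 2.55 in DFFDA_H against 2.03, 2.22, 1.55 and 1.64 in DFFDA_L. It was 1.80-fold higher (adjusted p = 0.00427). Hnrnpa0 (-0.46), Hnrnpab (-0.52), Srsf9 (-0.26) and Hnrnpul2 (-0.20) did not pass. Hnrnpab had 7.0, 6.61, 7.16 and 7.06 in DFFDA_H, overlapping 8.23, 6.87, 7.54 and 7.29 in DFFDA_L. All 27 calls were kept when each of the 8 libraries was left out in turn. With values below 0 set to 0, those of Hnrnpll and Hnrnpul1 were lost (adjusted p = 0.0949 and 0.0586). Mki67 had a mean of 3.68 ± 0.29 in DFFDA_H and 6.09 ± 0.27 in DFFDA_L (SD, n = 4 each), and the cycling markers summed to 337 to 402 against 521 to 671. The part of cycling in the result was not tested.

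**Figure D4:**
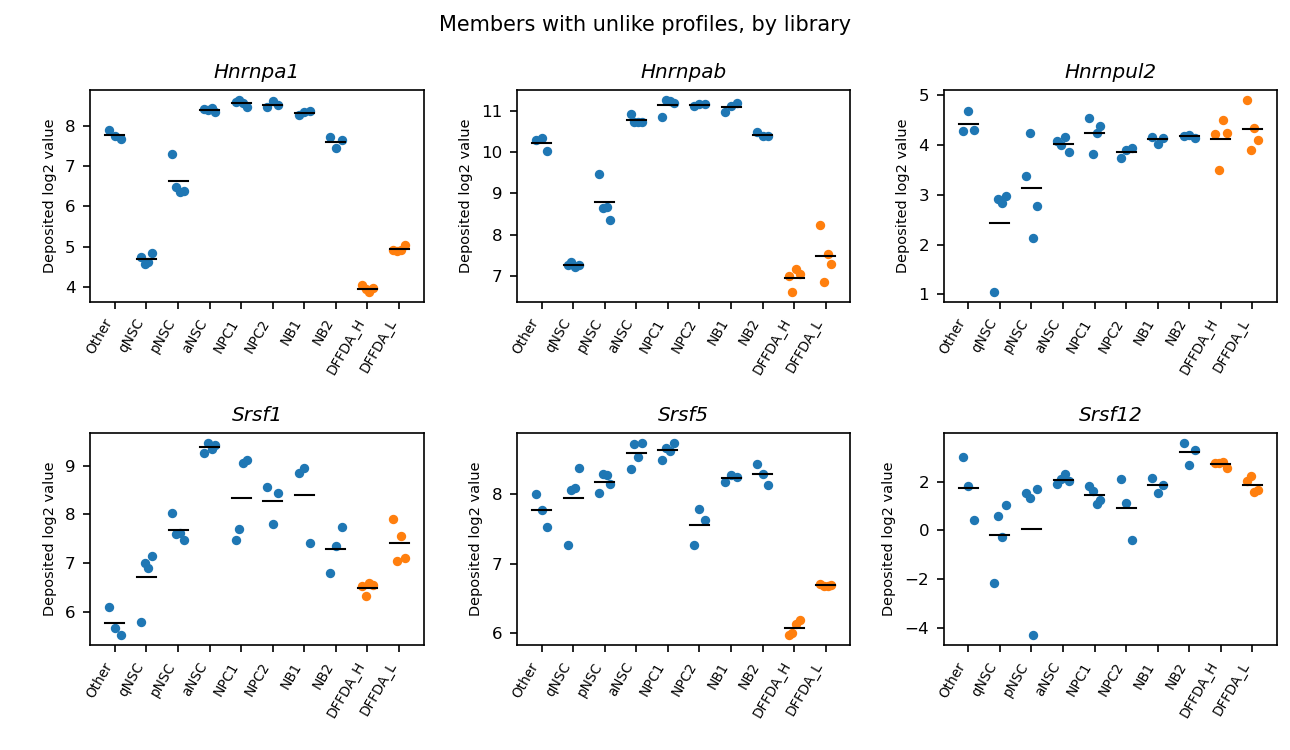
Deposited log2 value of 6 members in every library, by population (blue for fresh, orange for cultured cells), with black bars for population means and axes that do not start at 0. Hnrnpa1 and Hnrnpab are low in qNSC and in both cultured groups, Srsf5 is low in NPC2 among the named fresh populations, Srsf12 is highest in NB2 and Srsf1 is spread within NPC1 and NB1.

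The cultured and the fresh libraries cannot be compared by a test of origin, since culture, dye and origin cannot be told apart, so values are given side by side. Against the aNSC libraries, the DFFDA_L libraries were lower without overlap for 24 members and higher for 2, where 40.2% of 19158 genes were lower and 33.1% higher in this way. The median difference of means was -1.30 for the members and -0.19 for all these genes. Hnrnpa1 had 4.04, 3.96, 3.87 and 3.97 in DFFDA_H and 4.91, 4.90, 4.92 and 5.04 in DFFDA_L. Its qNSC values of 4.56 to 4.84 lay between these groups without overlap. Both cultured groups were far below its aNSC values of 8.35 to 8.44. Hnrnpab had a mean of 7.48 ± 0.57 in DFFDA_L and 10.77 ± 0.10 in aNSC (SD, n = 4 each). Hnrnpa0, which binds AU-rich elements, and Hnrnpa3 were the 2 that were higher in DFFDA_L, by 0.98 and 1.13. Srsf10, Hnrnpf, Hnrnph2, Srsf12 and Hnrnpul2 overlapped with aNSC, and Srsf10 had the same mean of 8.18 in both. Against the qNSC libraries, the DFFDA_H libraries were higher without overlap for 9 members and lower for 12, where 34% of the genes were higher and 33.5% lower. Srsf12 was 2.92 higher in DFFDA_H on the log2 scale, Hnrnpa3 2.38 and Hnrnpul2 1.68, and Srsf5 differed by -1.87. In qNSC replicate 1, Srsf12 was at the library's lowest value (-2.18). Hnrnpul2 had 1.04 there, against 2.83 to 2.96 in the other qNSC libraries. Both values lower the qNSC means used here, and the level of Hnrnpa3 is uncertain because of its near-identical stretches in other genes.

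The rest of the splicing machinery was read from lists chosen with earlier results of these data known. In aNSC against qNSC, 18 of 19 other hnRNP-type genes, 20 of 24 SR-related genes, 7 of 11 tested genes for SR protein kinases and importers, 50 of 51 core spliceosome genes and 7 of 10 nonsense-mediated decay genes were higher and none was lower, where 35.3% of all genes were higher. Their median log2 differences were 1.63, 1.00, 0.85, 1.62 and 0.69, beside 2.00 for the 31 members and 0.19 for all genes. Ewsr1, which encodes an RNA-binding protein, was 5.37-fold higher (adjusted p = 1.63e-13), and the SR-like splicing activator Tra2b 4.74-fold (adjusted p = 7.57e-14). The SR protein kinase gene Srpk1 was 4.05-fold higher (adjusted p = 9.47e-11) and the importer gene Tnpo3 2.58-fold (adjusted p = 2.32e-09). The kinase gene Clk1 did not pass (log2 difference 0.58, adjusted p = 0.0971). Among spliceosome genes Snrnp40, of the U5 particle, was 3.82-fold higher and Sf3a3, of the U2 particle, 3.37-fold.

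In pNSC against qNSC, where 14.2% of all genes were higher, 9 of 19 other hnRNP-type, 12 of 24 SR-related, 4 of 11 kinase or importer, 29 of 51 core spliceosome and 1 of 10 decay genes were higher and none lower. In aNSC against pNSC the counts were 14, 16, 4, 47 and 6 of the same lists, where 28.4% of all genes were higher, again with none lower. In NPC1 against aNSC, 4, 1, 1, 3 and 1 genes of these lists were higher, and 1 SR-related and 1 core spliceosome gene lower. Of all genes, 6.24% were higher there and 6.48% lower. In NPC2 against NPC1, where Srsf5 and Srsf11 fell, 5 of 24 SR-related genes and 1 decay gene fell, against 1.14% of all genes. None of these lists had a gene that rose, against 0.202% of all genes. In NB1 against NPC2, 1 kinase gene was higher and 1 hnRNP-type and 1 core spliceosome gene lower. Of all genes, 3.78% were higher in that comparison and 3.88% lower. Pnisr, which encodes an SR-related protein that binds Pnn, was 0.311 times its NPC1 level in NPC2 (adjusted p = 8.33e-05), and Rbm39, a U2AF-related coactivator of splicing, 0.583 times (adjusted p = 0.00264).

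In NB2 against NB1, where 14.2% of all genes fell and 10.4% rose, 25 of 51 core spliceosome genes fell and 1 rose, with a median of -0.52, while 4 SR-related genes rose and none fell, with a median of 0.13. Of the other lists, 2 hnRNP-type, 1 kinase and 3 decay genes rose, and 5 hnRNP-type and 1 decay gene fell. Eftud2, the GTPase of the U5 particle, fell to 0.511 times its NB1 level (adjusted p = 4.65e-05). Son, a large scaffold protein of nuclear speckles, was 1.67-fold higher (adjusted p = 0.00339) and Srrm2, another speckle scaffold, 1.56-fold (adjusted p = 0.0096). In NB2 against aNSC, 35 core spliceosome genes fell and 2 rose, of 51 tested, where 27.1% of all genes fell and 23.6% rose. Of 24 SR-related genes 8 fell and 3 rose, and of 19 hnRNP-type genes 9 fell and 4 rose. Of 11 kinase and importer genes 1 fell and 1 rose, and of 10 decay genes 3 rose. In Other, where 25.9% of all genes were higher and 28.4% lower, 17 of 51 core spliceosome genes were higher and 12 lower. Of the SR-related genes 7 were higher and 5 lower there, of the hnRNP-type genes 5 and 8, of the kinase and importer genes 0 and 5, and of the decay genes 4 and 3. Srrm4, which drives neuronal microexons, was 6.48-fold higher in NB2 than in aNSC (adjusted p = 6.35e-07).

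Ptbp1 was highest in aNSC and NPC2 among the fresh populations. Its mean log2 value was 6.65 ± 0.23 in qNSC, 7.59 ± 0.39 in pNSC, 9.07 ± 0.15 in aNSC and 8.82 ± 0.31 in NPC1 (SD, n = 4 each), then 9.03 ± 0.11 in NPC2, 8.19 ± 0.30 in NB1 and 6.90 ± 0.09 in NB2 (SD, n = 3 each). It fell in NB1 against NPC2 (-0.84, adjusted p = 0.00735) and in NB2 against NB1 (-1.30, adjusted p = 2.17e-05). Ptbp2 had means of 6.17 ± 0.54 in qNSC and 7.92 ± 0.05 in aNSC (SD, n = 4 each), and was 3.36-fold higher in aNSC (adjusted p = 1.51e-07). Its mean in NB2 was 8.25 ± 0.05 (SD, n = 3), and its difference of 0.33 from aNSC did not pass (adjusted p = 0.26).

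In DFFDA_H against DFFDA_L, 15 of 19 other hnRNP-type, 22 of 23 tested SR-related, 5 of 11 kinase or importer, 38 of 51 core spliceosome and 7 of 10 decay genes were lower, where 22.3% of all genes were. The kinase gene Clk4 alone was higher (1.26-fold, adjusted p = 0.0179). The hnRNP-type gene Rbmx fell to 0.399 times its DFFDA_L level (adjusted p = 8.09e-07), and Srpk1 to 0.637 times (adjusted p = 3.26e-05). The medians of the 5 lists were -0.67, -0.59, -0.24, -0.48 and -0.41, beside -0.69 for the members and -0.01 for all genes.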

How the data were processed

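RNA was measured in 36 libraries of 10 groups. Libraries were prepared from polyadenylated RNA with a SMARTer Ultra Low kit, per the labels' protocols, and sequenced on an Illumina NextSeq. Named in the submitters' processing notes are HISAT2, featureCounts, limma, Trimmomatic, cutadapt and FastQC, and the builds GRCm38 and mm10. Order, versions and settings of these steps were not stated. The authors deposited log2 values per gene in 1 table of 19909 genes (1770 blank lines were dropped), with no header that states the unit or normalization. From the values, 2 raised to them sums to 987637 to 987910 in each library and the medians are 3.53 to 3.56, as log2 CPM made to share 1 distribution would give. A change in total RNA per cell therefore cannot be seen, read totals are unknown, and no counting interval can be given.

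In R 4.3.3, limma 3.58.1 was used to fit a mean per group, with a trended and robust empirical Bayes step, to the 28 fresh libraries (17788 genes) and apart to the 8 cultured ones (15956 genes). The filter kept genes at a log2 value of 0 or more in 3 or more libraries of some group. P-values were adjusted by Benjamini-Hochberg over all genes of a comparison, with a threshold of 0.05. Fold changes are 2 raised to differences of group means of log2 values. The design foresaw a count model for counts, and this model because the table holds log values. The script was tested on simulated data. All 31 genes were found by name, and coordinates came from GENCODE M21 (19863 identifiers matched). Near-identical stretches were found with BLAST 2.17.0.

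The members and lists were chosen with earlier results of these data known. In each comparison, library values are given for up to 4 called members in each direction with the smallest adjusted p and for the largest difference, and a few further members were added after their values were seen. List examples are up to 2 in each direction with the smallest adjusted p, plus Ptbp1, Ptbp2, Srpk1, Clk1, Tnpo3 and Mki67. Alternatives were another centring, other filters, values below 0 set to 0, library weights, a replicate block, a fit of only the 2 groups, and leaving out each library. Replicate numbers were not treated as pairs in the main fit. Deviations of same-numbered libraries correlated weakly, between -0.141 and 0.193. The correlations were all positive in some comparisons, as in pNSC against qNSC (0.058 to 0.137), and mixed in others, as in NB2 against NB1 (-0.141 to 0.02). Whether same-numbered libraries share an origin was not tested.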

Additional observations from a re-analysis of the deposited data

Results flagged for a closer look

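In groups of 4 libraries, a library was listed when it stood far from the other 3 for its group's range, by Dixon's criterion at 95%. Of 186 member and group combinations checked, 16 were listed (8.6%). Chance alone lists about 1 in 20.

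Of the 16, 6 concern qNSC replicate 1, which was lowest of its group in Hnrnpa2b1 (8.50), Hnrnpk (8.83), Hnrnpul2 (1.04), Srsf6 (5.04), Srsf7 (7.19) and Srsf10 (5.58). The next lowest qNSC values of these genes were 8.84, 9.14, 2.83, 6.22, 7.85 and 6.46. In pNSC, replicate 1 was highest in Hnrnpa1 (7.30, against 6.35 to 6.49 in the other 3) and Hnrnpf (6.31), and replicate 3 lowest in Srsf12 (-4.31). In aNSC, replicate 1 was highest in Hnrnpab (10.93) and replicate 3 in Hnrnpu (11.99). The other 3 aNSC values were tied in both genes, at 10.72 and 11.77. With such ties the criterion is met whatever the gap, so these listings carry no weight. In NPC1, replicate 2 was highest in Srsf2 (10.61) and replicate 3 lowest in Hnrnpdl (8.47). In culture, DFFDA_L replicate 4 was highest in Hnrnpa1 (5.04) and lowest in Hnrnpr (6.88), and DFFDA_H replicate 4 was lowest in Srsf12 (2.55). Without qNSC replicate 1, 24 members were higher in pNSC than in qNSC and 30 in aNSC than in qNSC.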

How the results depend on the processing

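Of 175 called member differences, 136 kept their call in every alternative tried, and none of the 3086 alternative values turned its direction, while 189 lost the call. With 1 library left out at a time, the higher members numbered 21 to 26 in pNSC against qNSC, 27 to 30 in aNSC against pNSC, 30 to 31 in aNSC against qNSC, 0 to 2 in NPC1 against aNSC, 0 to 1 in NB1 against NPC2 and 0 to 6 in Other. The lower members then numbered 0 to 2 in NPC1 against aNSC, 1 to 3 in NPC2 against NPC1, 9 to 13 in NB2 against NB1, 17 to 18 in NB2 against aNSC, 10 to 18 in Other and 26 to 29 in DFFDA_H.

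In NPC1 against aNSC, the 2 higher members became 1 under trimmed mean log ratio centring, 1 with no filter, 5 with library weights and 5 with only the 2 groups fitted. The 1 lower member became 2 when a mean log2 value of at least 4 was asked, 7 with library weights and 3 with only the 2 groups fitted. In NPC2 against NPC1, the 4 lower members became 8 with library weights. In NB1 against NPC2, none was lower, and 7 were with library weights. In NB2 against NB1, 16 lower members became 10 under the ratio centring, and 1 was higher with only the 2 groups fitted. In NB2 against aNSC, 18 lower members became 28 with library weights, and 1 was higher with only the 2 groups fitted. In Other, the 4 higher members became 7 under the ratio centring and 2 with the mean of at least 4. Hnrnpa3 and Hnrnpul2 were not tested under that last filter, since their means were below it. In DFFDA_H the 1 higher member, Srsf12, was not tested under that filter, which left 0. Levels per kilobase by the longest coding transcript were 739 for Hnrnpab, 994 for Hnrnpk and 1480 for Hnrnpa2b1. The ratio centring was chosen after seeing the data, because the planned trimmed-mean centring left these columns as they were. The cause of the other changes was not tested.

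Replicate numbers were not treated as pairs in the main fit, and same-numbered libraries were only weakly correlated. With the replicate block, 24, 30 and 31 members were higher in pNSC against qNSC, aNSC against pNSC and aNSC against qNSC. It gave 2 higher and 1 lower member in NPC1 against aNSC, 2 higher in NB1 against NPC2, 2 lower members in NPC2 against NPC1 (without Hnrnph1 and Srsf11), 13 in NB2 against NB1 (without Hnrnpd, Hnrnph1 and Srsf1), 20 in NB2 against aNSC and 28 in DFFDA_H, and 2 higher in Other (without Hnrnpc and Hnrnpul2). Over all genes, 3959 calls in pNSC against qNSC became 2234 with library weights, 1511 with only these groups fitted and 2432 without pNSC replicate 1. The 239 calls in NPC2 against NPC1 became 2180 with library weights and 578 with only these groups fitted, the 1364 in NB1 against NPC2 became 6234 and 2888, the 2262 in NPC1 against aNSC became 5983 and 5080, and the 4371 in NB2 against NB1 became 9015 and 6690. With 1 library left out, the calls in NPC2 against NPC1 numbered 80 to 193, those in NB1 against NPC2 764 to 1228, and those in NPC1 against aNSC 1337 to 2128, lowest without NPC2 replicate 1, NB1 replicate 1 and NPC1 replicate 1. Asking a mean of at least 4, which tests fewer genes, turned 8585 calls in aNSC against pNSC into 5314, 11090 in aNSC against qNSC into 6539, 9030 in NB2 against aNSC into 5334, 9654 in Other into 5682 and 6995 in DFFDA_H into 4318. Depth is unknown. Srsf12 was at a library's lowest value in qNSC replicate 1 and pNSC replicate 3, where its level cannot be told from 0.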

Other observations

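The same libraries of a group were low in several members. In NPC1, replicates 1 and 2 had 7.47 and 7.70 of Srsf1, with 9.07 and 9.12 in replicates 3 and 4. They had 7.84 and 8.00 of Hnrnpl, with 8.56 and 8.68 in replicates 3 and 4, and 6.43 and 6.35 of Hnrnpul1, with 7.10 and 7.32. In NB1, replicate 3 had 7.40 of Srsf1, 7.47 of Hnrnpl and 6.16 of Hnrnpul1, with 8.85 to 8.96, 8.23 to 8.30 and 7.15 to 7.19 in the other 2 libraries. In NPC2, replicate 2 was lowest in the same 3 genes, with 7.81, 7.98 and 6.36, and in NB2 replicate 1, with 6.79, 6.78 and 5.86. These 3 genes were picked after their values were seen. Leaving out single libraries ended the calls of Hnrnpl and Srsf1 in NB2 against NB1 and of Hnrnpl in NPC1 against aNSC. It also ended those of Hnrnpul1 in aNSC against pNSC and of Hnrnpl in pNSC against qNSC. These differences rest on few libraries. In aNSC against qNSC and in Other, all 3 genes kept their call in every alternative tried.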
